A study of Nothobranchius furzeri with 68 samples.

Results

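The muscle of turquoise killifish (Nothobranchius furzeri), an annual fish with a short life span, heterozygous for aprt was compared with that of wild-type fish across all genes, pooling the age and sex groups. The members were all muscle libraries of the muscle count table, 27 of the 68 libraries in the series, of which 15 were Het and 12 were WT. Every fish had been fasted for 24 h, so fasting is common to both genotypes here. The Het groups were 3 old males, 4 young males, 4 old females and 4 young females, and each of the 4 WT groups held 3 fish. Old fish were 15 weeks and young fish 6.5 weeks of age. The labels give the genotype as WT or Het and do not describe the allele, so Het means here the fish labelled heterozygous. Livers of the same 27 fish, sampled together with the muscles, were used for the comparison between tissues.

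aprt encodes adenine phosphoribosyltransferase, the enzyme that salvages free adenine by joining it to a phosphorylated ribose to make AMP. Muscle holds a large adenine nucleotide pool, which is spent and rebuilt with contraction and is watched by AMP-activated protein kinase (AMPK), the cell's sensor of low energy. The genotype comparison asks which other transcripts of fasted muscle differ in fish heterozygous for this salvage gene.

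The labelled tissue was checked first. The fast skeletal muscle genes acta1 (58530 to 164600 CPM), mylpfa (25730 to 78810 CPM) and ckma (15990 to 29640 CPM) were high in all 27 libraries, where CPM is the usual depth-scaled count, with library sizes adjusted by the TMM method. Total counts ran from 24144462 to 31331150 per library, and 16380 genes passed the filter on low counts. Some libraries stood apart. The liver-type markers, 17 of which were tested, summed to 166.7 to 3695 CPM in Het muscles and to 159.8 to 295.1 CPM in WT muscles. The highest were Het old male fish 25 at 3695 CPM and Het old female fish 23 at 638.3 CPM. Leukocyte markers of the myeloid line summed to 288.9 CPM in Het old male fish 26 and 200.1 CPM in WT old male fish 18. The medians were 38.24 CPM over Het and 36.35 CPM over WT fish. The 3 WT old males were at 33.83, 144.8 and 200.1 CPM, and the 3 Het old males at 33.87, 41.89 and 288.9 CPM. Libraries 18 and 25 lay at the ends of the first and second principal components, which took 21.4% and 10.6% of the variance.

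The targeted gene was lower in Het muscle. Levels of aprt ran from 3.19 to 10.1 CPM in Het fish with a median of 4.85 CPM, against 5.03 to 15.4 CPM in WT fish with a median of 9.19 CPM. The Het mean was 55.7% of the WT mean (5.50 ± 2.07 CPM, SD, n = 15, against 9.88 ± 2.85 CPM, SD, n = 12). In old males aprt was at 4.17, 4.23 and 3.29 CPM in Het and at 7.20, 8.50 and 10.6 CPM in WT fish. In young males it was at 4.99, 8.35, 4.73 and 4.85 CPM in Het and at 15.4, 12.2 and 9.52 CPM in WT fish. The 2 genotypes did not overlap in either group of males.

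In old females aprt was at 10.1, 3.99, 3.19 and 4.51 CPM in Het and at 8.51, 8.87 and 11.8 CPM in WT fish. In young females it was at 4.91, 6.30, 6.08 and 8.81 CPM in Het and at 7.94, 5.03 and 12.9 CPM in WT fish. The female groups overlapped. In young females the Het fish at 6.30, 6.08 and 8.81 CPM lay within the range of the WT fish. The library labelled Het fish 21, an old female, also lay within the range of its WT group. Its liver did too, with aprt at 10.8 CPM, against 4.99, 7.66 and 6.01 CPM in livers of the other old Het females and 9.65, 11.4 and 10.8 CPM in those of old WT females. The pooled log2 fold change of aprt was -0.88 ± 0.168 (SE, edgeR quasi-likelihood test, adjusted p = 0.0378). Without fish 21 it was -1.01 (edgeR adjusted p = 0.00161). That fish was picked for its high aprt, so the direction of this change was fixed in advance and adds no support. An exact two-sided permutation of genotype within the age and sex groups gave a mean difference of -0.89 in log2 CPM (p = 0.000196 over 857500 permutations). The log2 fold change was -1.17 in old males, -1.10 in young males, -0.83 in old females and -0.40 in young females, and the test of a difference with age gave an unadjusted p of 0.476 and that with sex an unadjusted p of 0.138. The edgeR call of aprt was lost in 19 of the 27 fits that left out 1 fish, with adjusted p up to 0.108 without Het fish 27. It was kept in the 8 fits without WT fish 16, 18, 29 or 33 or Het fish 21, 25, 37 or 39.

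Across all genes 13 passed an adjusted p of 0.05, which is 0.0794% of those tested, with 7 higher and 6 lower in Het muscle. DESeq2 called 128 genes and limma voom with sample quality weights 215, each with all 13 among them. A further measure of the background is that 1819 genes, 11.1%, had an unadjusted p under 0.05, of which 1030 (6.29%) were higher and 789 (4.82%) lower in Het. In the same libraries 2154 genes (13.2%) were called for age and 524 (3.2%) for sex. The effect of genotype had the same sign in all 4 age and sex groups for 2578 genes, 15.7% of all, and for all 13 called genes, a pattern the pooled test itself favours. Leaving out 1 fish at a time gave 5 to 21 called genes. The count was 8 or fewer without WT fish 15, 17, 19, 29 or 32 or Het fish 22, 26, 34, 36 or 40, and 21 without WT fish 16.

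**Figure D1:**
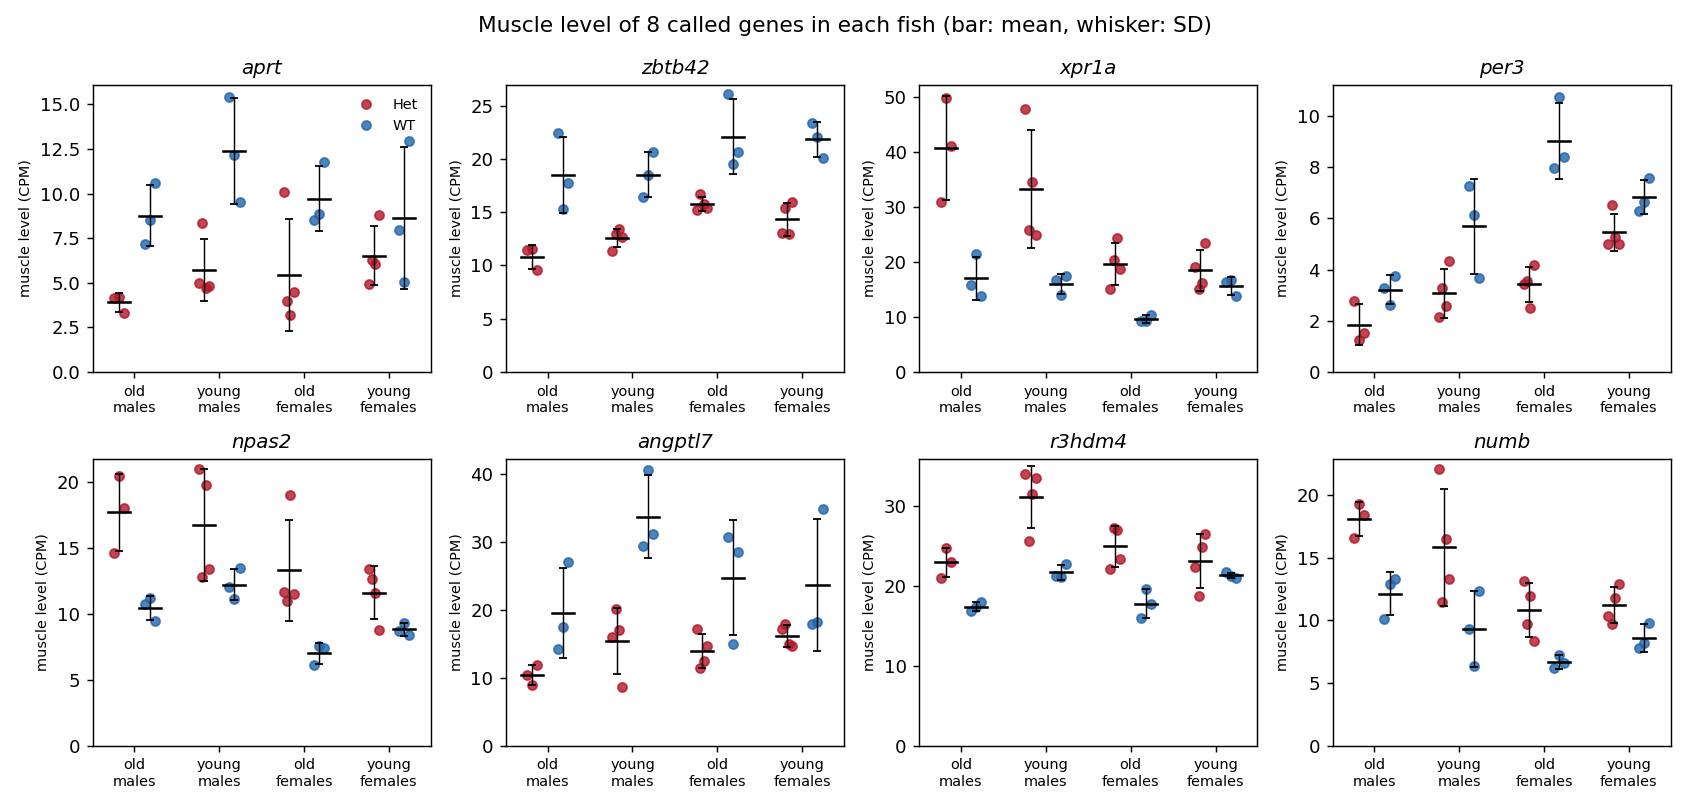
Muscle levels in CPM (linear axes from 0) of aprt and 7 other called genes, 1 point per fish, with the 4 age and sex groups along the horizontal axis, Het left of WT, the mean as a bar and the SD as a whisker. The Het and WT points of zbtb42 are apart in all 4 groups, and those of aprt overlap in the females.

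The called gene with the smallest p was zbtb42 (LOC107392463), a zinc finger and BTB domain gene whose human counterpart is mutated in a lethal contracture syndrome. It was at 11.4, 11.5 and 9.53 CPM in Het and at 22.4, 15.3 and 17.7 CPM in WT old males. In young males it was at 11.3, 12.9, 13.4 and 12.7 CPM in Het and at 16.5, 18.5 and 20.6 CPM in WT fish. In old females it was at 15.2, 16.7, 15.8 and 15.4 CPM in Het and at 26.1, 19.5 and 20.6 CPM in WT fish. Each Het fish of these groups lay below each WT fish of its own age and sex. The same held in young females, with 13.0 to 15.9 CPM in Het and 20.1 to 23.4 CPM in WT fish. zbtb42 was the only one of the 16380 genes (0.00611%) whose genotypes did not overlap in the same direction in all 4 groups. At least 3 such groups, with none opposite, were found for 25 genes (0.153%). Its pooled log2 fold change was -0.61 ± 0.0695 (edgeR adjusted p = 0.000126, error as SE), and it was called in all 38 alternative fits.

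xpr1a (LOC107393132), a homolog of the exporter of inorganic phosphate XPR1, was the most strongly raised of the called genes. It was at 31.0, 49.9 and 41.1 CPM in Het and at 15.9, 21.4 and 13.8 CPM in WT old males. In young males it was at 47.9, 25.8, 34.6 and 24.9 CPM in Het and at 16.7, 14.0 and 17.5 CPM in WT fish. In old females it was at 15.2, 20.3, 24.4 and 18.8 CPM in Het and at 9.33, 9.23 and 10.4 CPM in WT fish. These 3 groups did not overlap. In young females Het fish had 15.2 to 23.5 CPM and WT fish 13.9 to 16.8 CPM, and the ranges met. The pooled log2 fold change was 0.89 ± 0.113 (edgeR adjusted p = 0.000365, error as SE), with 1.26 in old males, 1.05 in young males, 1.03 in old females and 0.24 in young females. The call stood in all 38 alternative fits.

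Among the called genes were a repressor and an activator of the circadian clock. In the vertebrate clock, CLOCK or its relative NPAS2 pairs with a BMAL protein to activate transcription of the period and cryptochrome genes, whose products then shut the pair off. per3, a period gene, was at 3.42, 3.55, 2.51 and 4.19 CPM in Het and at 7.95, 10.7 and 8.41 CPM in WT old females. In old males it was at 2.76, 1.27 and 1.53 CPM in Het and at 3.29, 2.61 and 3.73 CPM in WT fish. In young males it was at 2.14, 3.27, 2.57 and 4.32 CPM in Het and at 7.27, 6.14 and 3.66 CPM in WT fish. Only the old females were free of overlap. Young females had 5.00 to 6.53 CPM in Het and 6.30 to 7.58 CPM in WT fish. The pooled log2 fold change of per3 was -0.85 ± 0.131 (edgeR adjusted p = 0.00577, error as SE). The call stood in each of the 27 fits that left out 1 fish, and was lost without the old females (adjusted p = 0.25).

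npas2 (LOC107386565) was at 14.6, 20.5 and 18.0 CPM in Het and at 10.7, 11.2 and 9.43 CPM in WT old males. In old females it was at 11.7, 11.0, 19.0 and 11.5 CPM in Het and at 6.12, 7.54 and 7.40 CPM in WT fish. Neither old group overlapped. Young males had 12.8 to 21.0 CPM in Het and 11.1 to 13.5 CPM in WT fish, and young females 8.81 to 13.4 CPM in Het and 8.41 to 9.32 CPM in WT fish. The pooled log2 fold change was 0.63 ± 0.103 (edgeR adjusted p = 0.00979, error as SE). The call was lost without the old males (adjusted p = 0.08) and without the old females (adjusted p = 0.14).

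The wider clock list, 29 genes tested, had per3 called lower and npas2 called higher, and no other member called. Its median log2 fold change was -0.11, against 0.01 over all genes tested. It was 0.02 without WT fish 33, -0.02 without WT fish 18 and -0.18 without Het fish 23. At an unadjusted p under 0.05 it held 3 genes higher and 7 lower in Het, where all genes gave 6.29% higher and 4.82% lower, so the count of higher members stands near the share over all genes. Besides npas2, the higher ones were bmal2 (0.34, adjusted p = 0.102) and clock (0.21, adjusted p = 0.242), which encode activating partners. Besides per3, the lower ones were bhlhe41 (-0.85) and bhlhe40 (-0.40), repressors of the activating pair. The others were nr1d2a (-0.66), nr1d2b (-0.28) and rorca (-0.36), which encode nuclear receptors of the clock, and tefb (-0.46), which encodes a transcription factor of its output. None of these 6 passed adjustment, with edgeR adjusted p from 0.167 to 0.376. Several of the uncalled members changed sign between the age and sex groups. In old males clock was at -0.01, bhlhe40 at 0.18 and nr1d2b at 0.28. In young females bhlhe41 was at 0.20 and rorca at 0.20. The sign was kept in all 4 groups by bmal2, nr1d2a and tefb. The period genes per1 (0.04) and per2 (-0.21), the cryptochrome gene cry1a (0.01) and arntl (0.02) had unadjusted p from 0.421 to 0.921. Like bmal2, arntl encodes a BMAL protein, an activating partner. The cryptochrome genes cry1 (0.06), cry2 (0.15) and cry5 (0.17) had unadjusted edgeR p from 0.0771 to 0.717. The pooled value of per1 averaged groups of opposite sign. It was 1.30 in old males, 0.25 in young males, -0.44 in old females and -0.93 in young females. The difference of its genotype effect with sex was 1.46 on the log2 scale (edgeR unadjusted p = 0.00104, adjusted p = 0.587). bmal2 passed in DESeq2 (adjusted p = 0.00604) and in limma voom with sample quality weights (adjusted p = 0.001). Muscles were collected in the morning per the labels. The time of each fish is not given in the sources used here, so clock time and genotype cannot be told apart for these genes.

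**Figure D2:**
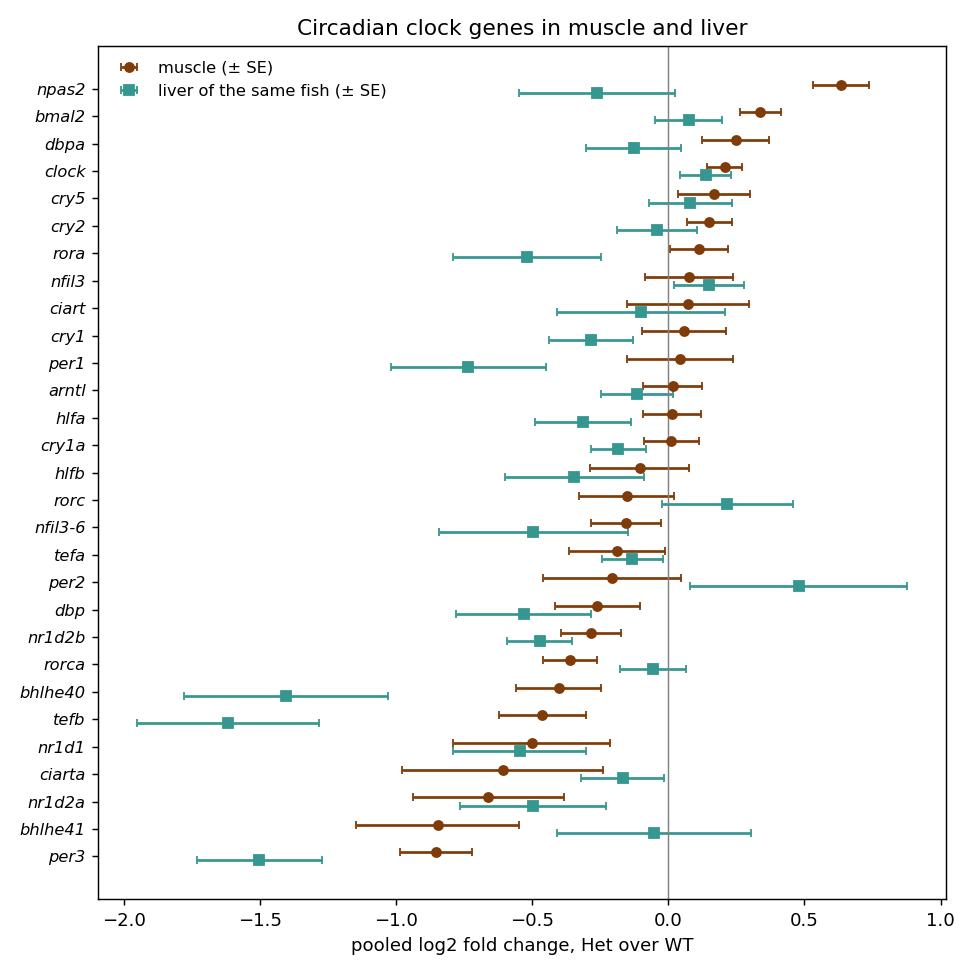
Pooled log2 fold change of Het over WT for the 29 circadian clock genes tested in muscle (circles) and in liver of the same fish (squares), with SE, 1 gene per line in the order of the muscle value. per3 is low in both tissues, at -0.85 in muscle and -1.50 in liver, and npas2 is at 0.63 in muscle and -0.26 in liver.

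Further called genes follow one by one. angptl7, a secreted angiopoietin-like protein, averaged 14.2 ± 3.45 CPM over Het fish (SD, n = 15) and 25.4 ± 8.61 CPM over WT fish (SD, n = 12), with 8.68 to 20.1 CPM in Het and 14.2 to 40.6 CPM in WT fish. The groups did not overlap in old males, young males and young females, and overlapped in old females. Its pooled log2 fold change was -0.85 ± 0.142 (edgeR adjusted p = 0.0124, error as SE), and the call stood in each of the 27 fits that left out 1 fish. gpr146, a G protein-coupled receptor, was lower in Het at 3.52 to 7.20 CPM (median 5.06 CPM), against 5.90 to 10.4 CPM (median 7.06 CPM) in WT fish. Its log2 fold change was -0.51 (adjusted p = 0.0324). mllt4, which encodes the junction protein afadin, averaged 12.3 ± 0.904 CPM over Het fish (SD, n = 15) and 14.6 ± 0.74 CPM over WT fish (SD, n = 12). Its difference was small, at -0.25 on the log2 scale (adjusted p = 0.0378). numb, an adaptor that restrains Notch signalling, had 8.38 to 22.1 CPM in Het (median 12.9 CPM) and 6.19 to 13.3 CPM in WT fish (median 8.74 CPM), a log2 fold change of 0.61 (adjusted p = 0.0227).

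The other called genes were higher in Het muscle. asb15, a muscle member of the ankyrin repeat and SOCS box family, which are recognition subunits of ubiquitin ligases, had a log2 fold change of 0.49 ± 0.0893 (edgeR adjusted p = 0.0227, error as SE). In old males it was at 25.6, 23.8 and 25.0 CPM in Het and at 14.6, 12.8 and 13.7 CPM in WT fish. The other 3 groups overlapped. r3hdm4 averaged 25.7 ± 4.42 CPM over Het fish (SD, n = 15) and 19.5 ± 2.23 CPM over WT fish (SD, n = 12), a log2 fold change of 0.38 (adjusted p = 0.0158). LOC107384264 and LOC107382005, for which no symbol was found, had log2 fold changes of 0.29 (adjusted p = 0.0227) and 0.67 (adjusted p = 0.0498). Calls nearer the threshold depended on single fish. Among the 27 fits that left out 1 fish, the call was lost in 4 for r3hdm4, 7 for numb, 10 for asb15, 13 for LOC107384264, 14 for gpr146, 19 for mllt4 and 23 for LOC107382005. Their highest adjusted p in these fits was 0.0643 for r3hdm4 and numb, 0.0801 for asb15, 0.135 for LOC107384264, 0.0872 for gpr146, 0.0979 for mllt4 and 0.124 for LOC107382005.

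**Figure D3:**
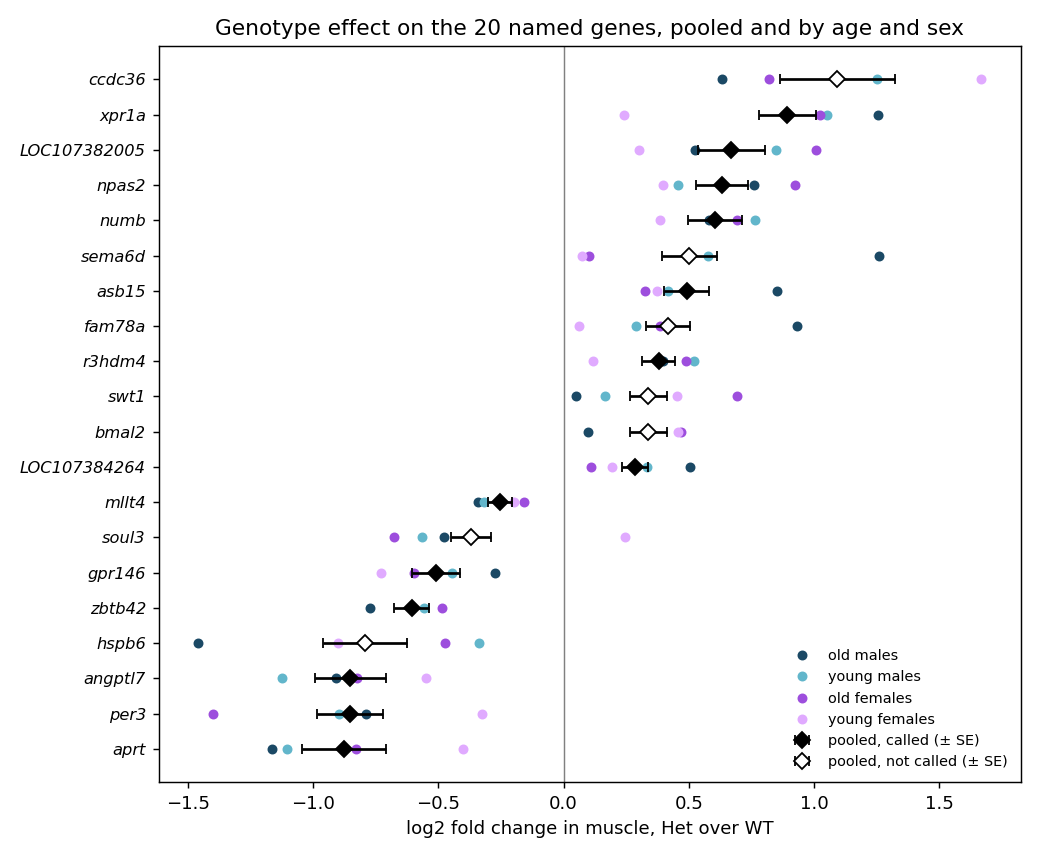
Log2 fold change of Het over WT in muscle for 20 genes, 1 per line. They are the 13 called genes and the next by rank that have a symbol. The pooled value is a diamond with its SE, filled where called, and the 4 age and sex groups are coloured points. All 13 called genes have their 4 points on the same side of 0, and xpr1a has its smallest value, 0.24, in young females.

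The 7 genes with a symbol that came next by rank, named with these, missed the threshold (adjusted p from 0.0791 to 0.102). They were fam78a (0.42), ccdc36 (1.09), swt1 (0.34), bmal2 (0.34) and sema6d (0.50), a transmembrane semaphorin gene, with positive values, and the small heat shock protein gene hspb6 (-0.79) and soul3 (-0.37) with negative values. Of all the 20 genes soul3 alone did not keep its sign in the 4 groups, at -0.48, -0.57 and -0.68 in old males, young males and old females and at 0.25 in young females.

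Taken 1 group at a time, no gene passed adjustment in old males, young males, old females or young females with edgeR. The smallest adjusted p-values were 0.103, 0.404, 0.17 and 0.103, and 1472, 945, 1255 and 1097 genes had an unadjusted p under 0.05. DESeq2 called 55, 2, 21 and 9 genes in these groups. With edgeR the old male count was 164 without Het fish 26 and 30 without Het fish 27. It was 8, 7 and 1 without WT fish 20, 19 and 18. No difference of the genotype effect with age or with sex passed either, with 486 and 1088 genes at an unadjusted p under 0.05 and 2 and 6 called by DESeq2. A test of any genotype effect in the 4 groups together called 4 genes (0.0244%), namely zbtb42, xpr1a, per3 and tet3, an oxidase of methylated cytosine in DNA. This count was 2 in 18 of the 27 fits that left out 1 fish, 5 at most in the others, and 136 in DESeq2. tet3 was not called in the pooled test (-0.15, adjusted p = 0.305).

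tet3 was the gene in this test whose groups went in opposite directions. In old females it was at 9.90, 11.2, 10.3 and 11.5 CPM in Het and at 8.02, 8.02 and 8.54 CPM in WT fish. In young females it was at 9.12, 9.66, 10.7 and 8.89 CPM in Het and at 13.4, 15.9 and 13.6 CPM in WT fish. Neither female group overlapped, with Het higher in the old and lower in the young. This gene was picked by the test of any group (edgeR adjusted p = 0.0411) on the same values, so the pattern is no separate support. The difference of its genotype effect with age, averaged over the sexes, was 0.40 on the log2 scale (edgeR unadjusted p = 0.001, adjusted p = 0.99993). How many of all genes share such a pattern was not counted. The old male value was -0.29 and the young male value -0.13 on the log2 scale, so the males did not share the rise of the old females. Old males did not overlap either, at 8.53 to 9.23 CPM in Het and 10.4 to 11.6 CPM in WT fish.

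Purine metabolism was described next, as the pathway of the targeted gene. Of the 24 genes tested for purine salvage and the interconversion of adenine nucleotides, aprt was the one called. At an unadjusted p under 0.05, 4 were higher and 2 lower, aprt included, where all genes gave 6.29% higher and 4.82% lower. The median log2 fold change was 0.07. Adenylate kinase gene ak1, whose product balances ATP, ADP and AMP, averaged 2499 ± 437 CPM over Het fish (SD, n = 15) and 2059 ± 432 CPM over WT fish (SD, n = 12), a log2 fold change of 0.27 (adjusted p = 0.336). The AMP deaminase gene ampd2b was low in both genotypes, at 0.107 to 0.398 CPM in Het and 0.228 to 0.856 CPM in WT fish (log2 fold change -0.87, adjusted p = 0.168). The muscle AMP deaminase ampd1 (0.05) and the salvage enzymes hprt1 (-0.03), adk (-0.16) and mtap (-0.10) had unadjusted p from 0.235 to 0.717.

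Of the purine list, xdh and gda encode enzymes that take purines towards uric acid. Their log2 fold changes were 1.47 and 1.13 at unadjusted edgeR p of 0.0165 and 0.0246. Both were low, at averages of -0.91 log2 CPM for xdh and -2.24 log2 CPM for gda, so the gda value rests on few reads per fish. xdh was at 6.97 CPM in fish 25 and 0.981 CPM in fish 23, the Het libraries with the highest sums of liver-type markers, and at most 0.392 CPM in the other Het and 0.267 CPM in the WT fish. The part of these markers in the xdh value was not tested. Of 15 genes of de novo purine and guanine nucleotide synthesis none was called, and 1 was higher and 1 lower before adjustment. Of 19 genes of AMPK and its regulators none was called. Before adjustment 4 were higher (prkaa1, prkag3, camkk2 and cab39, at 0.17 to 0.24 on the log2 scale) and 1, ppargc1a, was lower (-0.58). For both lists the share over all genes by that measure was 6.29% higher and 4.82% lower.

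Ribosomal protein genes lay almost all on one side in the pooled comparison. Of 76 cytosolic ribosomal protein genes none was called, 75 had a positive pooled value, and 43 had an unadjusted p under 0.05, against 6.29% of all genes in that direction. The median log2 fold change was 0.24 pooled, 0.50 in old males, 0.10 in young males, -0.27 in old females and 0.61 in young females, so the old females had the opposite sign. Only 4 of the 76 had the same sign in all 4 groups. Without fish 18 and 25 the count before adjustment was 1 higher and 1 lower with a median of 0.15. Without fish 18, 19, 25 and 26, which leaves 1 Het and 1 WT old male, the median was 0.04. The TMM factors for library size were 0.903 to 1.048 in Het and 1.061 to 1.384 in WT old males. In young females they were 0.851 to 0.886 in Het and 0.962 to 1.03 in WT fish. They overlapped in young males and old females. The part of library composition in the ribosomal values was not tested.

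In the proteasome list all 29 genes tested had a negative pooled value, with a median of -0.12 and 4 at an unadjusted p under 0.05, against 4.82% of all genes in that direction. The median was -0.04 without WT old male fish 18, whose mean log2 CPM over the list was 5.47, against 4.46 and 4.12 in the other WT old males, and -0.22 without WT fish 20. It was 0.01 without fish 18, 19, 25 and 26. None had the same sign in all 4 groups, with medians of -0.49 in old males and 0.20 in young males. Chaperone and stress genes had 7 lower and 1 higher before adjustment of 27 tested, with a median of -0.17. Over all genes 4.82% were lower and 6.29% higher by that measure, which is also the background of the lists that follow. Among them were the mitochondrial chaperone genes hspd1 (-0.37) and hspa9 (-0.35), with medians of the list from -0.09 to -0.21 in the 4 groups. Cell cycle genes had 5 lower and none higher of 27 before adjustment, with list medians of -0.35 in old males, -0.56 in old females and -0.31 in young females and of 0.37 in young males. The pooled median was -0.23, and -0.07 without the old females. The list was low, with group means of -0.54 to 0.15 log2 CPM. Among young males the list mean was 0.55 in Het fish 39. It was -0.50, -0.35 and -0.27 in the other Het and -0.21, -0.25 and -0.54 in WT fish. The 5 lower genes were mcm2 (-0.80), mcm6 (-0.69), mcm5 (-0.65) and mcm3 (-0.67), subunits of the replicative helicase, and cdca7 (-0.94). The smallest adjusted p of these was 0.117 for mcm2, which DESeq2 (adjusted p = 0.0183) and voom (adjusted p = 0.0413) did call.

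For fuel use, 4 of 27 genes of fatty acid oxidation and fasting metabolism were lower and none was higher before adjustment. These were cpt1b (-0.36), which encodes the muscle form of the carnitine step into mitochondria, acads (-0.28), plin2 (-0.61), which coats lipid droplets, and pparab (-0.44). Glycolysis and glycogen genes had 3 lower of 29, and the 45 nuclear genes of oxidative phosphorylation had none in either direction, with a median of -0.01. In insulin, IGF and mTOR signalling 1 of 27 was higher (igf1ra, 0.38) and 4 were lower, with the glucose transporter gene slc2a1b at -0.82 (adjusted p = 0.127, called by DESeq2 and voom). Of 28 genes of protein breakdown and FoxO signalling only klf15 was under the unadjusted threshold (-0.59). No gene of these lists was called in edgeR.

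Structural lists held no gene called by edgeR either, while ctgf, a matrix-associated growth factor gene (-0.57, edgeR adjusted p = 0.157), was called by DESeq2 (adjusted p = 0.0427) and voom (adjusted p = 0.0292). The median was 0.16 over 10 fast sarcomere genes, -0.11 over 40 extracellular matrix genes, -0.08 over 21 genes of myogenic regulation, 0.05 over 23 genes of phosphagen and calcium handling and -0.04 over 18 genes of interferon and inflammation. Group medians, in old males, young males, old females and young females, were 0.52, 0.05, -0.15 and 0.30 for the fast sarcomere list. None of its 10 genes had the same sign in all 4 groups. In the same order the matrix list had 0.09, -0.32, -0.08 and -0.15, and the phosphagen list 0.22, -0.06, -0.11 and 0.17. The interferon list had 0.07, -0.35, -0.15 and 0.35. All 4 myogenic group medians were below 0. Single fish moved several of the pooled medians. The interferon median was -0.44 without Het fish 26 and 0.03 without WT fish 30. Without WT fish 20 the matrix median was -0.04, the myogenic median -0.02 and the phosphagen median 0.10. The myogenic median was -0.14 without Het fish 22. Before adjustment there were 2 higher in the fast sarcomere list (mylpfa and tpm1), 3 lower in the matrix list (ctgf, thbs4 and thbs1), 2 higher and 1 lower in the myogenic list (mef2c and myf6 higher, chrng lower) and 2 higher and 1 lower in the phosphagen list (casq1a and casq1b higher, slc6a8 lower). None was under that threshold in the interferon list.

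**Figure D4:**
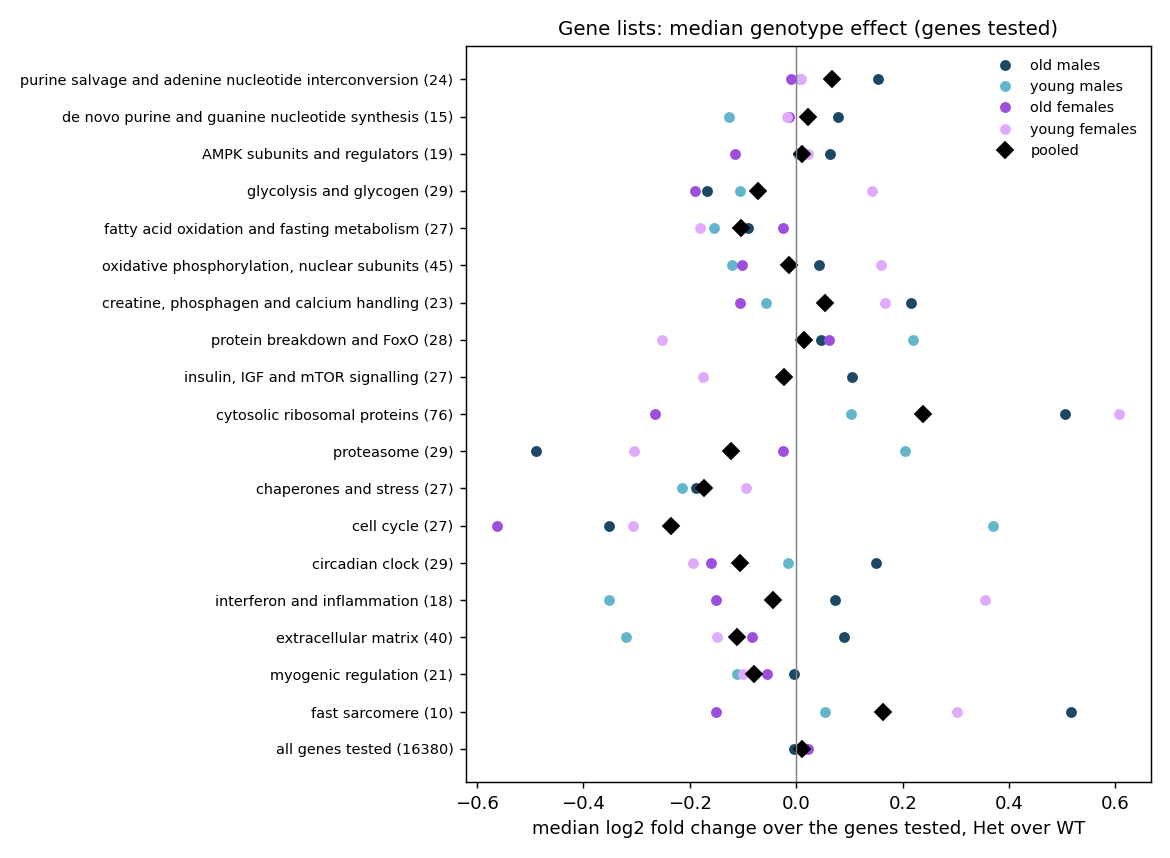
Median log2 fold change of Het over WT for each gene list (number of genes tested in brackets), with the pooled median as a diamond and the 4 age and sex groups as points. The ribosomal protein list spans -0.27 in old females to 0.61 in young females, while the median over all genes lies near 0 in each group.

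Markers of other cells were read in the same fit. Liver-type markers had 10 of 17 higher at an unadjusted p under 0.05, none called, with a median of 1.82. Without fish 25 that count was 0 and the median 0.36. None of the 14 myeloid markers was under the threshold, and none of the slow or red muscle markers, whose sum ran from 451.1 to 1234 CPM in Het and from 340.2 to 1412 CPM in WT muscle. Pigment cell markers had 2 of 8 higher, skin and scale markers 1 higher and 1 lower of 10, and endothelial markers 1 lower of 13. None of these was called. Over all genes 6.29% were higher and 4.82% lower by that measure. Fewer cells of a type and less RNA per cell cannot be told apart in such bulk samples. Without fish 18 and 25 the pooled count was 73 called genes, the 13 among them. Without fish 18, 19, 25 and 26 it was 23, and 6 of the 13 were among those, but the old males then hold 1 Het and 1 WT fish, which are assumed to vary like the other groups.

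The genes nearest to aprt in the genome were described as the surroundings of the targeted gene. Of the 25 protein-coding genes on each side in the RefSeq gene table (assembly NfurGRZ-RIMD1), 50 in all, 38 were among the counted genes and 24 were tested. None was called, where 0.0794% of all genes were. The log2 fold changes of those tested ran from -0.28 to 0.39 with a median of -0.00017, against 0.01 over all genes. At an unadjusted p under 0.05, 1 was higher and none lower, against 6.29% and 4.82% of all genes.

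Liver of the same fish shared part of this list. In its own fit over 16810 genes, 3 genes were called for genotype (0.0178%), all lower in Het, namely aprt, per3 and ube2ql1. aprt was at 4.99 to 13.4 CPM in Het and 8.13 to 21.2 CPM in WT livers, a log2 fold change of -0.86 ± 0.115 (edgeR adjusted p = 0.00263, error as SE), beside -0.88 in muscle. per3 was at 1.94 to 6.77 CPM in Het (median 3.22 CPM) and 5.45 to 18.6 CPM in WT livers (median 9.35 CPM), and the log2 fold change was -1.50 ± 0.23 (edgeR adjusted p = 0.0107, error as SE). ube2ql1, a relative of ubiquitin-conjugating enzymes, had a log2 fold change of -0.68 in liver (adjusted p = 0.0259). In muscle ube2ql1 was at 1.28 to 6.40 CPM in Het and 3.70 to 10.2 CPM in WT fish, a log2 fold change of -0.61 that missed the threshold (adjusted p = 0.117). Of the clock genes with low muscle values, tefb was at -1.62 (adjusted p = 0.104), bhlhe40 at -1.40 (adjusted p = 0.249) and bhlhe41 at -0.05 (adjusted p = 0.994) in liver on the log2 scale.

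The other called muscle genes that were tested in liver, 10 of them, were not called there. npas2 had a log2 fold change of -0.26 in liver, where its level was 23.2 ± 15.8 CPM over Het fish (SD, n = 15) and 24.5 ± 11.0 CPM over WT fish (SD, n = 12). zbtb42, xpr1a and angptl7 were low in liver, with means under 1 CPM in both genotypes. The liver log2 fold change of angptl7 was 0.83 (adjusted p = 0.727), beside -0.85 in muscle. numb had a log2 fold change of -0.13 in liver and 0.61 in muscle. The difference between tissues was tested in a joint fit with the fish as a block, and no gene of 18485 passed (0%), with 1529 at an unadjusted p under 0.05 and 54 called by DESeq2. The smallest adjusted p was 0.0584 (tp53inp1). The difference for numb was 0.71 on the log2 scale (adjusted p = 0.139), that for per3 0.61 (adjusted p = 0.4) and that for angptl7 -1.64 (adjusted p = 0.362). Library kits and sequencers differed between the tissues per the labels, so tissue and preparation cannot be told apart.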

How the data were processed

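The deposited values were raw counts of reads per gene and library, made by the authors from polyadenylated RNA of 1 muscle or liver of 1 fish, per the labels. The submitters' processing notes name FastQC 0.11.8, Trim Galore 0.6.4, cutadapt 3.4 and STAR 2.7.6a. The genome build, the annotation, the counting tool and whether strand was used are not given in the sources used here, so overlapping, antisense and near-identical genes are uncertain. Of 14280 LOC identifiers, 5241 were given a symbol from RefSeq (NfurGRZ-RIMD1).

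From the counts, genes were kept by filterByExpr (minimum count 10, minimum total 15) and fitted by the quasi-likelihood method of edgeR 4.0.16 (R 4.3.3, TMM) with 1 mean per age, sex and genotype group. The pooled effect was the equal-weight average of Het minus WT over the 4 age and sex groups. Benjamini-Hochberg adjustment ran over all genes tested, and called means an adjusted p under 0.05. An adjusted p printed without a tool comes from edgeR. Log2 CPM used a prior count of 2. Single-gene values in CPM carry counting error only through the depth given, and the spread between fish is given as SD.

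Alternatives were DESeq2 1.42.0, RLE size factors, no filter, an additive fit, limma 3.58.1 voom with sample quality weights, a fit of only the groups compared, and each fish left out in turn. The pooled fit was run on simulated counts with known changes, each larger than that of any called gene. These counts held no age or sex differences and no outlying fish. The simulation therefore does not cover effects of the size found here. All 33 pairs of muscle libraries within groups differed by more than sampling noise (chi-square per degree of freedom at least 17.8). The series text states that muscle and liver came from the same fish. Deviations of a fish in both tissues had a median correlation of 0.178, with a range of -0.00436 to 0.622. The own pair had the highest correlation in only 10 of 27 fish. Named were aprt, the called genes and, up to 20 in all, the genes with a symbol of next smallest unadjusted p, together with genes called in a test of any group or in liver and members of the lists. The members, lists, rule and tests were chosen with earlier results of these data known.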

Additional observations from a re-analysis of the deposited data

Results flagged for a closer look

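In each age and sex group of 4 Het fish, the named and clock genes were searched for 1 fish far from the other 3. Of 138 such comparisons 9 were found by Dixon's gap test at its 95% critical value, where chance gives about 1 in 20. In young Het males, aprt was at 8.347 CPM in fish 39, against 4.733 to 4.99 CPM in the others. In the same group gpr146 was at 7.2 CPM in fish 38 (others 4.412 to 4.792 CPM) and bhlhe40 at 5.275 CPM in fish 41 (others 4.412 to 4.491 CPM). In old Het females, npas2 was at 19.03 CPM in fish 23 (others 11 to 11.67 CPM) and hspb6 at 56.24 CPM in fish 21 (others 23.12 to 28.35 CPM). Within this group, fish 21 was the one whose aprt lay in the range of the old WT females. In young Het females, per3 was at 6.53 CPM in fish 35 (others 5.003 to 5.253 CPM), dbp at 25.11 CPM in fish 36 (others 17.29 to 18.3 CPM), rora at 8.365 CPM in fish 37 (others 9.258 to 9.427 CPM) and rorca at 23.19 CPM in fish 34 (others 19.25 to 19.87 CPM).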

How the results depend on the processing

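The pooled count of 13 called genes was 128 with DESeq2 and 215 with voom and sample quality weights, both holding all 13, and 84 genes were called by both of these (44 higher, 40 lower in Het). It was 73 without fish 18 and 25, 23 without fish 18, 19, 25 and 26, 4 without the young males, 2 without the old females and 32 without the young females, alternatives chosen after seeing the data. Under DESeq2 the counts were 55 in old males, 2 in young males, 21 in old females, 9 in young females, 2 for the difference with age, 6 for that with sex, 136 for any group and 1074 for sex. A fit of only the groups compared gave 4 in young males. Without fish 18 and 25, and also without fish 18, 19, 25 and 26, old males and old females had 2 each, and the second leaves 1 Het and 1 WT old male, assumed to vary like the other groups. Leaving out 1 fish gave 5 to 21 pooled, 0 to 164 in old males, 0 to 1 in young males, 0 to 1 in old females, 0 to 2 in young females and 2 to 5 for any group. The permutation difference of aprt ran from -0.97 to -0.80. The cause of these shifts was not tested. zbtb42 and xpr1a were called in all 38 alternatives, per3 in 37, npas2 and angptl7 in 36 and aprt in 15, and no single named gene changed sign. List medians did cross 0, such as the clock list (-0.18 to 0.03), the proteasome (-0.24 to 0.01), interferon (-0.44 to 0.03), insulin signalling (-0.16 to 0.07), purine salvage (-0.04 to 0.09) and oxidative phosphorylation (-0.09 to 0.03). For the muscle minus liver difference, the fit without the replicate block gave 0 calls, as did the one with it, DESeq2 with the block gave 54, and leaving out 1 old fish gave 0 to 7. Young fish were not left out there. Genotypes lie in different fish, so the genotype comparison has no pairs to block. Depth limits low genes most: at 24144462 to 31331150 counts per muscle library, a gene well under 1 CPM rests on few reads per fish.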

Other observations

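Of the 13 called genes, 6 also passed adjustment for sex in the same muscle libraries, where 3.2% of all genes did, and for each of them the male over female value had the sign of the Het over WT value. The sex values were 0.69 for xpr1a, 0.50 for npas2, 0.55 for numb, 0.63 for LOC107382005, -0.31 for zbtb42 and -0.87 for per3 on the log2 scale, with edgeR adjusted p from 0.000677 to 0.0188. Both effects come from the same 27 libraries, in a fit where the tests of genotype, sex and age share the spread of each gene. A gene of small spread passes each test more readily, so the share over all genes is not a matched background for the called genes. The called genes per3 (-0.45), r3hdm4 (-0.23) and LOC107384264 (-0.24) also passed for age, each lower in old than in young fish (adjusted p from 0.0041 to 0.0261), where 13.2% of all genes passed for age, which leaves 3 of 13 near the share over all genes.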
